A study of Drosophila melanogaster with 6 samples.

Results

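The genes described here encode the enzymes that make and break down ecdysteroids, the steroid hormones that time the moults of insects. They are phm, dib, sad, spok, shd, nvd, sro and Cyp18a1, chosen by gene name from the annotation of the array. All 8 were found among the 11983 genes that have a probe set of their own on the array, with 10 probe sets among the 18769 that are not array controls. The gene phm (phantom) was matched by its gene identifier, because the annotation lists it as phtm, while Phm in the same annotation is another gene. RNA of whole larvae of Drosophila melanogaster, taken early in the third instar and fed bakers' yeast, was hybridised to 6 oligonucleotide arrays. The 3 gain samples came from a w1118 line that carries a heat-inducible transgene with the whole cDNA of DHR96, the nuclear receptor encoded by Hr96. The 3 control samples came from w1118 larvae without the transgene. Larvae of both groups were heated at 37.5 °C for 1 h beginning 3 h after the moult, and RNA was prepared 4 h after that. The labels describe 1 transgenic line with heat shock as the driver in the whole animal, and no uninduced transgenic larvae were analysed here. Induced DHR96 and any standing difference of the line from its host therefore enter each value together.

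Ecdysone is made from dietary sterol, since insects do not synthesise cholesterol. In larvae the prothoracic gland carries out all steps but the last, through the so-called Halloween enzymes, most of which are cytochrome P450 proteins. Peripheral tissues such as the fat body, gut and Malpighian tubules then hydroxylate ecdysone to the active hormone, and Cyp18a1, whose transcription is induced by the hormone in many tissues, inactivates it. DHR96 belongs to the nuclear receptor family and is known for its part in sterol and lipid metabolism in the midgut. The comparison asks whether transcripts of the hormone's enzymes differ when DHR96 is expressed in excess.

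None of the 4 enzyme genes that could be tested differed between gain and control larvae past the threshold. Those 4 were spok and phm of the prothoracic gland, shd of the peripheral tissues, and Cyp18a1. The test was limma over all 7974 genes and unnamed probe sets, called at an adjusted p under 0.05 (Benjamini-Hochberg). It called 3.93% of all tests, 0.451% of them higher and 3.47% lower, so a count of 0 among 4 lay near the background. At an unadjusted p under 0.05 the count was also 0 of 4, against 21.1% of all tests. The other 4 genes, nvd, sro, dib and sad, did not reach a log2 value of 4 on 3 or more arrays and were not tested.

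The transgene's own product was clear on each array. Hr96 had log2 values of 14.73, 14.71 and 14.64 in gain 1 to 3, against 9.47, 9.82 and 9.50 in control 1 to 3. The difference was 5.10 ± 0.13 (SE, n = 3 arrays a group, adjusted p = 1.86e-05). Nothing in the labels ties the samples of a group to separate cultures, so p-values measure only the spread between these samples, which may be technical. Gain 2 and control 3 stood apart from the rest of their groups. Over the tested genes gain 2 lay below the mean of gain 1 and gain 3 by a median of -0.29, and 65.8% of tested probe sets were lowest on it. Of the 10374 probe sets too dim to test, 86.0% were highest on it. Control 1 and control 2 differed by an SD of 0.21 over the tested probe sets, while control 3 differed from them by SDs of 0.43 and 0.48. The median difference over all tests was -0.15, and -0.046 without gain 2.

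**Figure D1:**
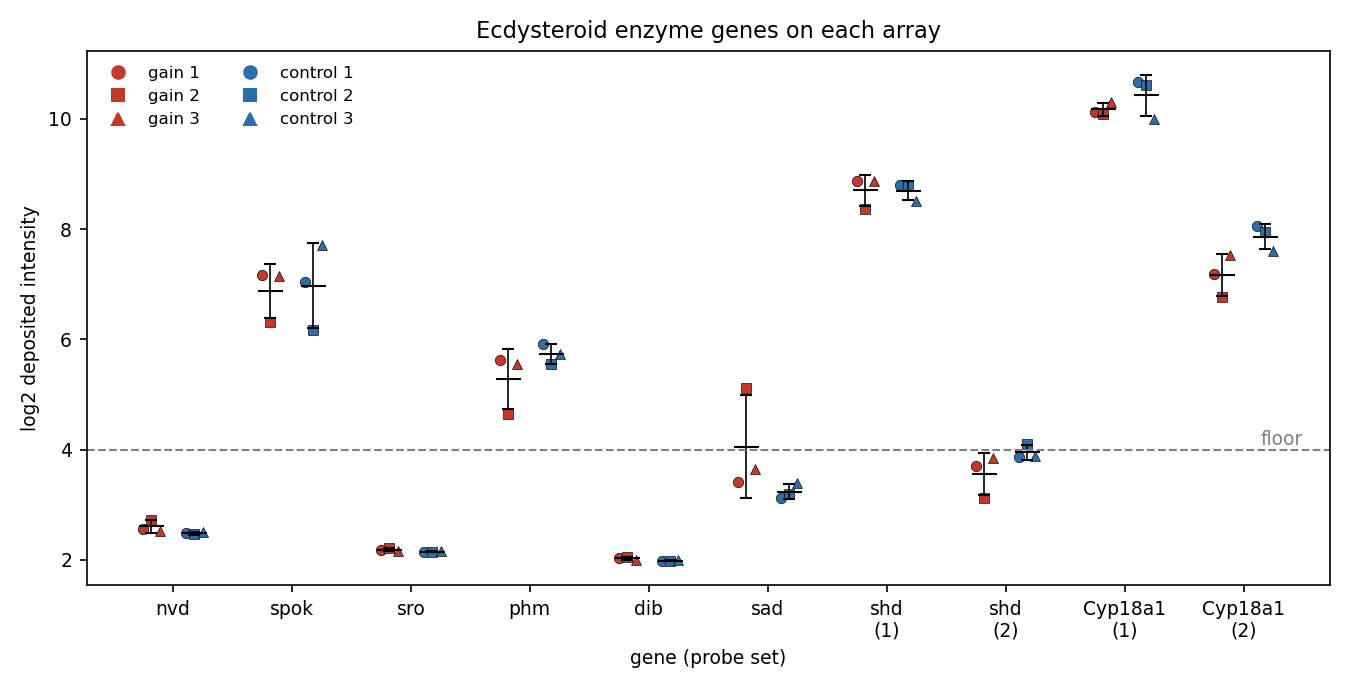
Log2 deposited intensity (vertical axis) of the 10 probe sets of the 8 ecdysteroid enzyme genes, ordered along the pathway, with gain arrays in red left of control arrays in blue. Each marker is 1 array, horizontal bars are group means, error bars are SDs (n = 3), and the dashed line is the floor of 4; 5 probe sets lie above the floor on all arrays, and sad lies above it on gain 2 alone.

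The pathway starts with nvd (neverland), an oxygenase that converts cholesterol to its dehydro form. Its probe set had log2 values of 2.57, 2.73 and 2.52 in gain larvae, against 2.48, 2.46 and 2.52 in control larvae. All 6 values lay well under the floor of 4, below which the signal was treated as background. Gain 2 was the highest, as it was for most dim probe sets of the array.

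The steps that follow form the so-called black box of the pathway, where spok (spookier), a cytochrome P450, and sro (shroud), a short-chain dehydrogenase, act. Spok was the most variable of the tested enzyme genes. It had log2 values of 7.16, 6.31 and 7.14 in gain larvae, against 7.04, 6.17 and 7.70 in control larvae. The groups overlapped fully, and the lowest and the highest value were both in control. The means were 6.87 ± 0.49 in gain and 6.97 ± 0.77 in control (SD, n = 3 each). The difference was -0.10 ± 0.42 (SE, adjusted p = 0.92), with a 95% interval from -1.11 to 0.91. On a linear scale that interval runs from 0.464-fold to 1.88-fold, so neither a loss nor a gain of up to that size could be told from no change. The residual SD of spok, 0.64, was larger than that of 97.4% of all tests. Its sign rested on single arrays, with a difference of 0.18 without gain 2 and 0.27 without control 3. Without control 3 and gain 2 together it was 0.55, with a 95% interval from -0.32 to 1.41 and an adjusted p of 0.329.

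The dehydrogenase gene sro had log2 values of 2.18, 2.21 and 2.16 in gain larvae, against 2.14, 2.15 and 2.16 in control larvae. These lay under the floor on every array, so no level of sro was measured in either group.

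The next 3 steps are hydroxylations of the steroid by the P450 enzymes phm, dib (disembodied) and sad (shadow). The gene phm lay above the floor on all arrays. It had log2 values of 5.63, 4.65 and 5.55 in gain larvae, against 5.92, 5.56 and 5.74 in control larvae. Gain 2 was far below the rest, and gain 1 lay within the control range. The means were 5.27 ± 0.54 in gain and 5.74 ± 0.18 in control (SD, n = 3 each). The difference of -0.46 ± 0.27 (SE) was the largest among the 4 tested genes and did not pass (adjusted p = 0.38), with a 95% interval from -1.12 to 0.19. As a fold this was 0.725, with an interval from 0.459 to 1.14. Without gain 2 the difference was -0.15 (adjusted p = 0.603), against a median of -0.046 over all tests. The deviation of phm on gain 2 from the other gain arrays was -0.94, more than the median of -0.29 over all tests.

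The mitochondrial hydroxylase gene dib had log2 values of 2.03, 2.06 and 2.00 in gain larvae, against 1.99, 1.98 and 2.00 in control larvae. Like nvd and sro it lay under the floor on all 6 arrays. In all 3 genes every gain value lay above every control value, by differences of 0.041 for dib, 0.12 for nvd and 0.036 for sro. The same separation was seen in 51.9% of all 10052 probe sets below the floor on every array, so it is shared with the background of the array.

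The gene sad, which encodes another mitochondrial P450, had log2 values of 3.41, 5.12 and 3.64 in gain larvae, against 3.12, 3.21 and 3.39 in control larvae. It passed the floor on gain 2 and on no other array. Its groups did not overlap, with the gain arrays higher. The same direction of separation was seen in 51.3% of the probe sets too dim to test. Most of those, unlike sad, lay below the floor on every array. The difference of sad was 0.82, and 0.29 without gain 2. With no filter on dim probe sets the 95% interval ran from -0.41 to 2.04 (limma, adjusted p = 0.354). The direction on gain 2 was the opposite of that of phm and spok, whose values on that array were the lowest of their group.

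The last activating step is the hydroxylation of ecdysone by shd (shade), a mitochondrial P450 of peripheral tissues. The brighter of its probe sets (1638040_at) had log2 values of 8.87, 8.37 and 8.87 in gain larvae, against 8.80, 8.79 and 8.51 in control larvae. In each group 1 array lay below the other arrays, gain 2 and control 3, and the groups overlapped. The means were 8.70 ± 0.29 in gain and 8.70 ± 0.17 in control (SD, n = 3 each). The difference was 0.0026 ± 0.17 (SE, adjusted p = 0.994), with a 95% interval from -0.42 to 0.42. That interval spans 0.749-fold to 1.34-fold and was the narrowest of the 4 tested genes. Quantile normalization of the arrays gave a difference of 0.25, beside a median of 0.037 over all tests in that scaling. Its 95% interval ran from 0.0035 to 0.50 (limma, unadjusted p = 0.0477, adjusted p = 0.195), above 0 throughout. The dimmer probe set of shd (1635002_at) had 3.70, 3.13 and 3.84 in gain larvae, against 3.86, 4.11 and 3.89 in control larvae. Only control 2 reached the floor there, so this probe set was not tested. Its groups did not overlap, with the gain arrays lower. That held for 1.03% of the probe sets too dim to test, most of which lay below the floor on every array. Among the tested probe sets it held for 25.1%. With no filter the difference of -0.39 had a 95% interval from -0.92 to 0.13 (limma, adjusted p = 0.354). It was -0.18 without gain 2 and -0.14 with median centring.

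**Figure D2:**
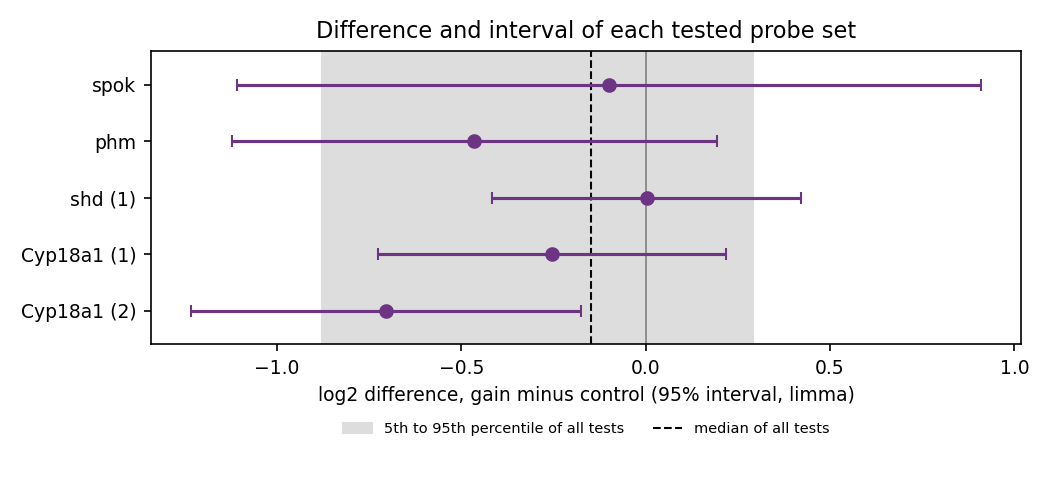
Log2 difference, gain minus control, of the 5 tested probe sets (points) with 95% intervals from limma. The grey band spans the 5th to the 95th percentile of all 7974 tests, from -0.88 to 0.29, the dashed line is their median of -0.15, and the dimmer probe set of Cyp18a1, marked (2), is the one whose interval does not include 0.

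Breakdown of the hormone is represented by Cyp18a1, a P450 that hydroxylates and further oxidises the active hormone to an inactive acid. The array reads it with a pair of probe sets. The brighter one (1631300_at) had log2 values of 10.12, 10.08 and 10.31 in gain larvae, against 10.67, 10.61 and 10.00 in control larvae. Gain values lay close together and between the low control 3 and the high control 1 and control 2. The means were 10.17 ± 0.12 in gain and 10.42 ± 0.37 in control (SD, n = 3 each). The difference was -0.25 ± 0.20 (SE, adjusted p = 0.496), with a 95% interval from -0.73 to 0.22, or 0.605-fold to 1.16-fold. Without control 3 it was -0.47, with a 95% interval from -0.77 to -0.16 and an adjusted p of 0.103. With control 3 and gain 2 left out it was -0.42 (adjusted p = 0.0741). Array weights in limma gave -0.48 and a call (adjusted p = 0.0144), in a fit that called 32.2% of all tests and whose weights stopped before the tool's convergence tolerance was reached.

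The dimmer probe set of Cyp18a1 (1641022_a_at) had log2 values of 7.18, 6.77 and 7.53 in gain larvae, against 8.05, 7.94 and 7.61 in control larvae. The groups did not overlap, a separation with the gain arrays lower that 25.1% of all 8395 tested probe sets showed. The means were 7.16 ± 0.38 in gain and 7.87 ± 0.23 in control (SD, n = 3 each). With every probe set tested on its own the difference was -0.70 ± 0.22 (SE), with a 95% interval from -1.23 to -0.18, an unadjusted p of 0.0168 and an adjusted p of 0.145 by limma. It ranged from -0.89 to -0.51 when each array was left out in turn. An unadjusted p under 0.05 was reached by 21.0% of the probe sets tested in that way. The mean of both probe sets gave a difference of -0.48, with a 95% interval from -0.95 to -0.0076 (limma, unadjusted p = 0.0473, adjusted p = 0.232). The probe sets thus had the same sign, sizes of -0.25 and -0.70, and the same 2 arrays, control 1 and control 2, as their highest. Why their sizes differ was not tested.

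With every probe set tested on its own, 5 of the 10 were tested and 1 had an unadjusted p under 0.05, that of Cyp18a1. The cytochrome genes Cyp18a1 and phm are direct neighbours in the genome, per the reference table of Release 6. The brighter probe set of Cyp18a1 and the only one of phm had differences of -0.25 and -0.46, and neither passed. The dimmer probe set of Cyp18a1 had -0.70 and did not pass either.

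**Figure D3:**
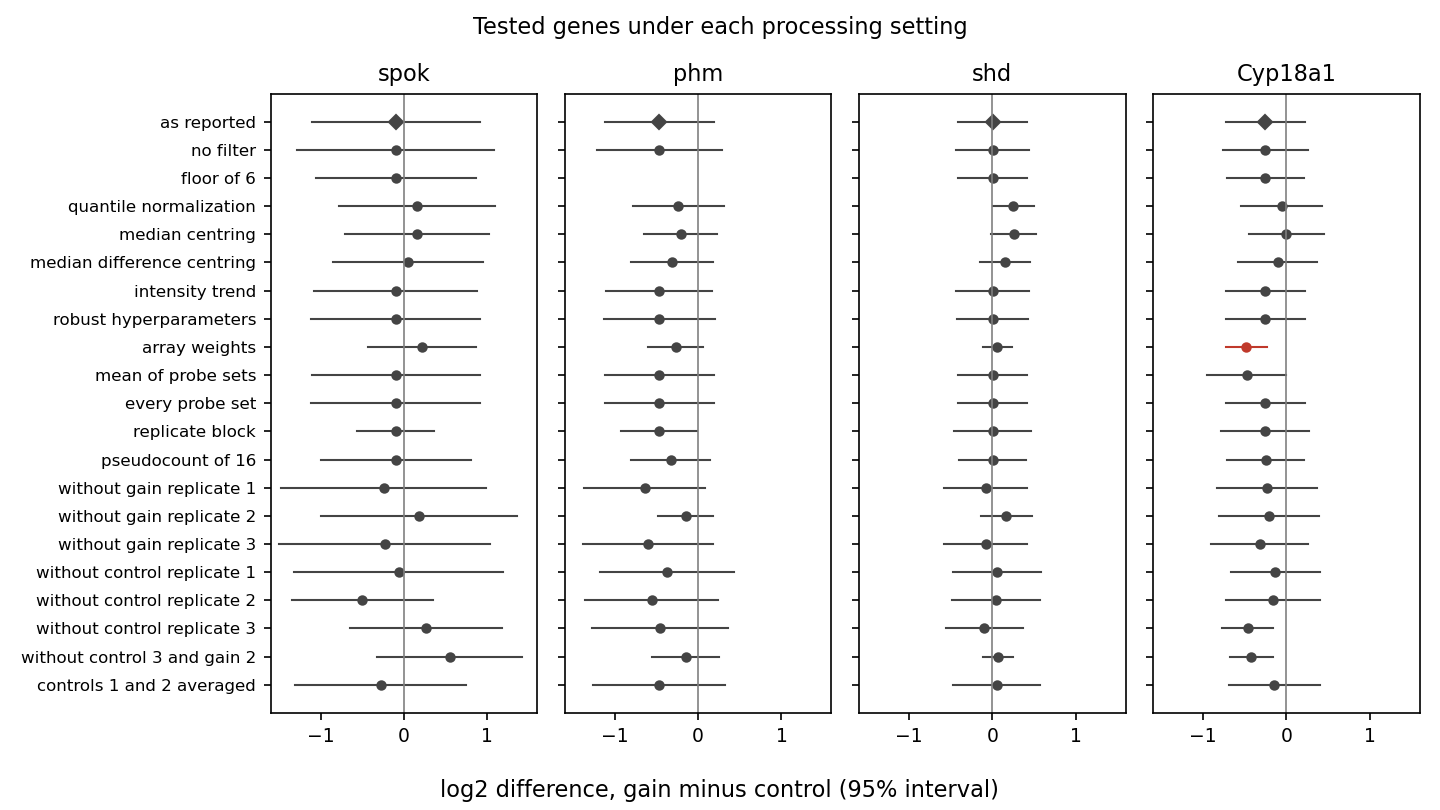
Log2 difference, gain minus control, of spok, phm, shd and Cyp18a1 (points; the diamond is the value as reported) with 95% intervals under each processing setting; no point for phm is drawn with a floor of 6, which it does not reach. Red marks an adjusted p under 0.05, which occurred once, for Cyp18a1 with array weights.

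In whole larvae, fewer cells of a type and less RNA per cell cannot be told apart, and the prothoracic gland is a small part of the animal. Of its enzyme genes, spok and phm lay above the floor on all 6 arrays, while nvd, sro and dib lay under it on all 6. The listed genes of other parts of the ring gland, to which the prothoracic gland belongs, were near background. The gene jhamt, a juvenile hormone enzyme of the corpora allata, lay at 2.28 to 2.37 in gain and 2.25 to 2.28 in control. The gene Akh, a peptide hormone of the corpora cardiaca, lay at 2.25 to 2.28 in gain and 2.03 to 2.37 in control.

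Expression of the Halloween genes changes with larval stage, and genes that mark progress through the instar differed between arrays. Of 11 salivary gland genes, 8 lay below the filter, among them all 6 glue genes listed (Sgs1, Sgs3, Sgs4, Sgs5, Sgs7 and Sgs8), which are switched on later in the instar. The new-glue gene ng3 had 10.15, 10.93 and 10.22 in gain larvae, against 11.86, 12.25 and 7.71 in control larvae. Control 3 was thus the lowest array for ng3, as it also was for ng1 and ng2. The fat body storage protein gene Lsp2 had 12.16, 12.10 and 12.62 in gain larvae, against 13.16, 11.64 and 14.45 in control larvae, where control 3 was the highest and control 2 the lowest. Neither the 3 tested salivary genes nor the 3 tested fat body genes passed, beside 3.93% of all tests. Their differences ran from -0.17 for ng3 to 0.40 for ng2, and from -0.79 for Lsp2 to 0.45 for Fbp1. The part of stage in the values of spok and Cyp18a1 was not tested.

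**Figure D4:**
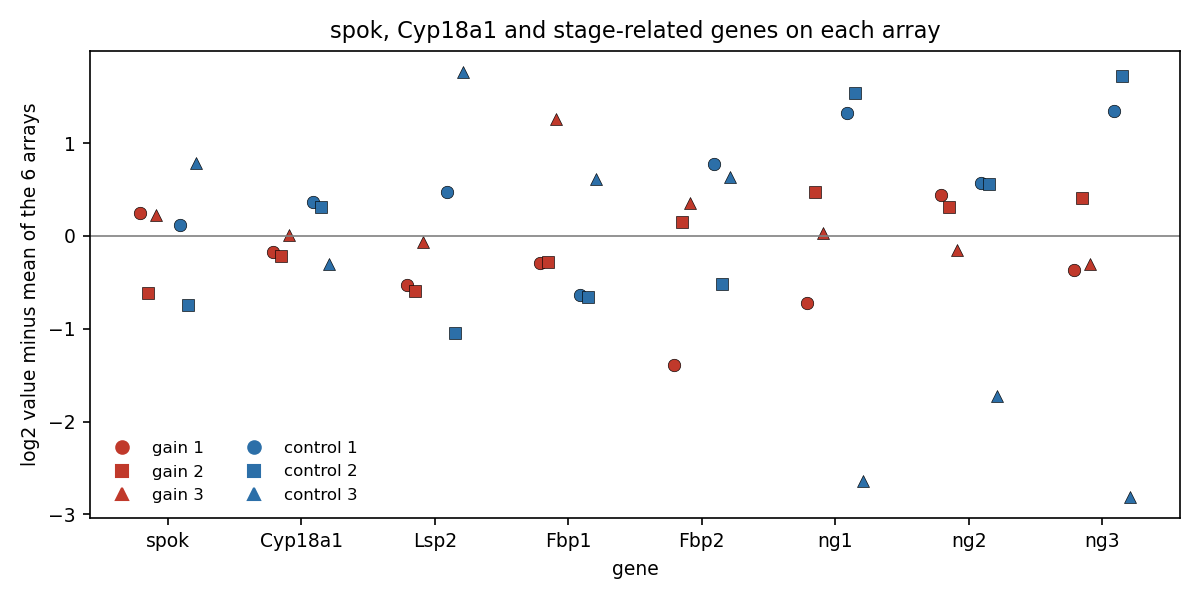
Log2 value minus the mean of the 6 arrays for spok, Cyp18a1 (brighter probe set), 3 fat body genes (Lsp2, Fbp1, Fbp2) and 3 salivary gland genes (ng1, ng2, ng3), with gain arrays in red left of control arrays in blue. Control 3 (blue triangle) is the highest array for spok and Lsp2, not for Fbp1 or Fbp2, and the lowest for Cyp18a1 and for ng1, ng2 and ng3.

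Around the enzymes stand further genes of synthesis, electron supply, sterol supply and transport. Of 15 such genes 8 were tested, and none passed in either direction (lowest adjusted p = 0.192), beside 3.93% of all tests. Their median difference was -0.18, close to -0.15 over all tests. Of the 8, 7 were negative, as were most of all tests, whose median lay below 0. The largest were in ScpX, a sterol carrier protein gene, and Atet, a transporter gene of the ABC family known for loading ecdysone into vesicles. ScpX had log2 values of 10.47, 10.28 and 10.90 in gain larvae, against 10.92, 10.79 and 11.38 in control larvae, a difference of -0.48 (adjusted p = 0.272). Atet had 8.36, 7.23 and 7.78 in gain larvae, against 8.33, 8.51 and 7.84 in control larvae, a difference of -0.44 (adjusted p = 0.459). In both genes the groups overlapped. The lowest adjusted p, 0.192, was that of Npc1a of the same list, with a difference of -0.38. Its groups did not overlap, with the gain arrays lower, as in 25.1% of all tested probe sets. The mitochondrial ferredoxin genes Fdx1 and Fdx2, whose class of protein passes electrons to mitochondrial P450 enzymes, had differences of 0.034 and -0.018. Below the filter lay 4 genes: spo, the paralogue of spok, nobo, a glutathione transferase gene of the pathway, Cyp6t3, and the ecdysone oxidase gene Eo. For 3 genes (dare, Cpr and Syt1) no probe set was named for them alone, and they were not analysed here.

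Of 24 genes that signal to the gland or regulate transcription there, 13 were tested. None passed (lowest adjusted p = 0.159), beside 3.93% of all tests. The median difference was -0.31, below the -0.15 of all tests. Of the 13, 11 were negative, as were most of all tests, whose median lay below 0. On gain 2 11 of the 13 had their lowest value, beside 65.8% of all tested probe sets. The median of this list without gain 2 is not reported here. Smox, the Smad protein gene of the activin pathway, had log2 values of 6.29, 5.19 and 6.37 in gain larvae, against 7.17, 6.78 and 6.73 in control larvae. Its groups did not overlap, with the gain arrays lower, as in 25.1% of all tested probe sets. The difference of -0.94 did not pass (adjusted p = 0.178). The nuclear receptor gene ftz-f1, known to regulate phm and dib, had 8.55, 6.96 and 8.68 in gain larvae, against 9.22, 9.24 and 8.14 in control larvae. Its groups overlapped (difference -0.80, adjusted p = 0.426), and its lowest values were on gain 2 and control 3. The genes of the brain hormone Ptth and its receptor tor (torso), and ouib, a zinc finger factor known to act on spok, lay below the filter.

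On the receiving side, 9 of 21 ecdysone response genes were tested, 2 of them (br and ftz-f1) shared with the regulators. The nuclear receptor gene Hr38 was at or above the floor in control alone and so entered the test only through the group where it was high; its call is set aside. Of the other 8, Hr39 fell, none rose, and 7 did not pass, while 3.47% of all tests were called lower and 0.451% higher. The brightest of the 4 probe sets of Hr39 had log2 values of 6.87, 6.30 and 6.90 in gain larvae, against 7.78, 7.86 and 7.59 in control larvae. Its difference was -1.05 (adjusted p = 0.0365), and the other probe sets of Hr39 are not reported here. Hr38 had 3.22, 3.54 and 3.97 in gain larvae, all under the floor, against 5.98, 5.15 and 5.17 in control larvae. The clock gene vri had 7.84, 7.60 and 7.11 in gain larvae, against 6.10, 6.61 and 6.56 in control larvae, and did not pass (difference 1.09, adjusted p = 0.0544). The median of the 8 was -0.24. The receptor gene EcR and its partner usp had differences of -0.35 and -0.24 without passing. The call of Hr39 held without gain 2 or control 3 and was lost when any other array was left out (adjusted p from 0.055 to 0.163), while its difference stayed between -1.16 and -0.86.

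**Figure D5:**
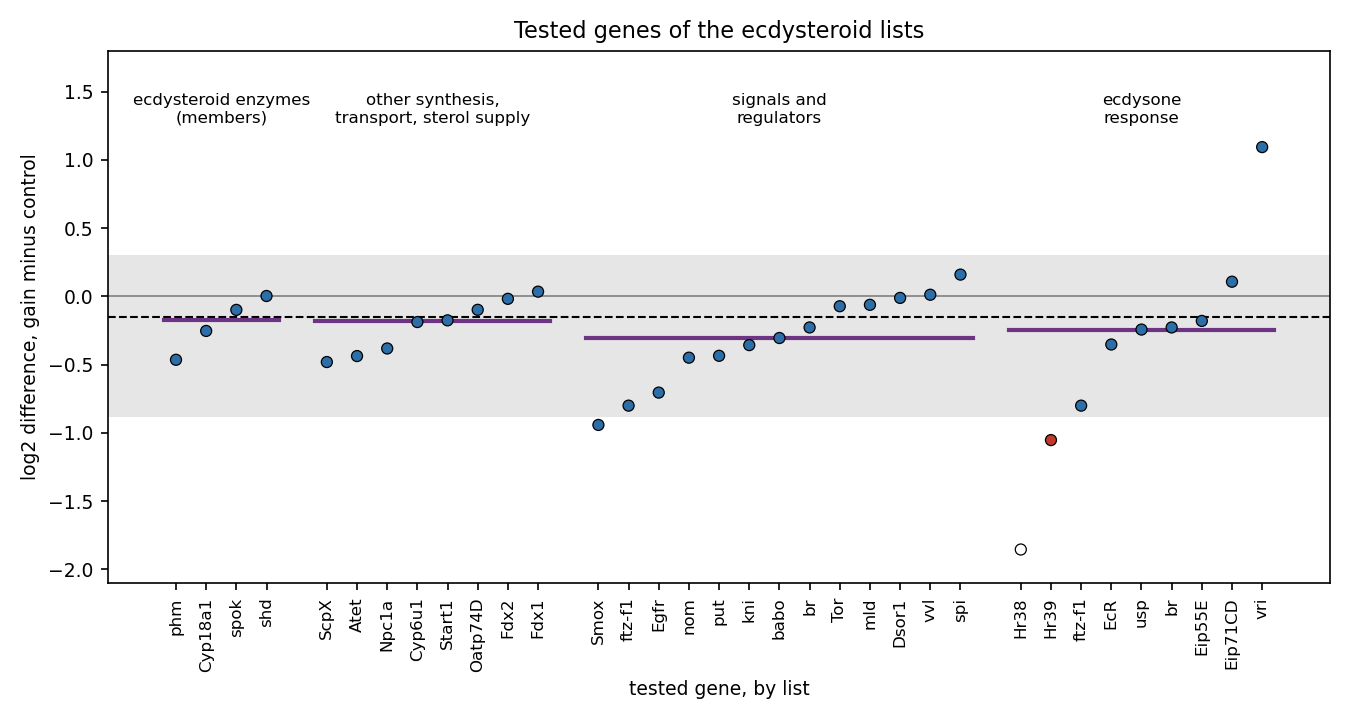
Log2 difference, gain minus control, of each tested gene (points) in 4 lists, with list medians as purple bars. The grey band spans the 5th to the 95th percentile of all tests and the dashed line their median of -0.15; the red point, Hr39, passed the test, and the white point, Hr38, reached the floor in control alone.

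As a description, the 7009 other named and tested genes were ranked by Pearson's r with each tested enzyme gene over the 6 arrays. The arrays share 2 groups and the offset of gain 2, and the part of these in a high r was not tested. How many genes have a high r with a gene outside the enzymes is not reported here. For phm, 828 genes had an r of 0.9 or more, led by AP-2alpha, lig and msb1l (r = 0.998, 0.997 and 0.997). For spok only 68 genes did, led by Vamp7, Fmo-2 and LeuRS (r = 0.995, 0.994 and 0.991). For shd 129 did, led by CG12091, CG32107 and CG4853 (r = 0.996, 0.995 and 0.989). For Cyp18a1 143 did, led by CG8665, fliI and CG5096 (r = 0.983, 0.98 and 0.975).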

How the data were processed

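The deposited intensities were made by the authors with GCRMA (no version stated), per the submitters' processing notes. They are linear, 1 for each probe set and array, and span 2.54 to 86990. The scanner and any genome build were not given in the sources used here. With 3 arrays a group, array number limits precision. Of 18952 probe sets, the platform annotation lists 1 gene for 13647, several for 402 and none for 4720, and 183 are array controls. By gene ID, 13544 matched a Release 6 reference table that supplied current symbols and neighbours.

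Values were taken to log2 without a pseudocount. Probe sets entered the test when they reached 4 on at least 3 of 6 arrays, and the brightest of a gene was used (7974 tests). The test of gain against control used limma 3.58.1 under R 4.3.3 (lmFit and eBayes without covariates), with Benjamini-Hochberg adjustment over all tests. On simulated data it recovered 8 of 50 log2 changes of 0.5 and 32 of 50 changes of 1. It recovered 46 of 50 changes of 2 and 49 of 50 changes of 4, with 12 false calls in all. Most changes of 0.5 were thus missed. The simulation drew independent noise with the residual SDs of all tested genes and without the shared offsets of gain 2 and control 3. The 4 tested enzyme genes had residual SDs of 0.23 to 0.64, beside a median of 0.20 over all tests. The recovery of changes in genes as variable as these was not tested. All adjusted p-values are from limma. Tables used Python 3.11.15, pandas 2.3.3 and NumPy 2.4.6, and figures Matplotlib 3.10.9.

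The genes and lists were chosen with earlier results of these data known. Named are all 8 enzyme genes, Hr96, the called genes and the 2 largest other differences of each list, the 3 genes most like each tested enzyme gene, tested neighbours, and further list members to complete a description, chosen after their values were seen. Alternatives were other filters, scalings, variance models and uses of probe sets, a pseudocount of 16, the replicate number as a block, and arrays left out. Averaging control 1 and control 2 was added after the data were seen.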

Additional observations from a re-analysis of the deposited data

Results flagged for a closer look

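The gene sad was not tested because it was dim, yet it had a log2 value of 5.12 on gain 2, above the floor of 4, while the 3 control arrays lay at 3.12, 3.21 and 3.39. The other gain arrays, gain 1 and gain 3, lay at 3.41 and 3.64. Gain 2 was also the highest array for 86.0% of the probe sets too dim to test. The untested genes dib, nvd and sro were highest on it too, but far less above the other gain arrays than sad was. The part of a shift shared by dim probe sets in the value of sad was not tested.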

How the results depend on the processing

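No array left out in turn and no other filter, scaling or variance model gave a call among the tested enzyme genes, except array weights, which called 1, Cyp18a1 (-0.48, adjusted p = 0.0144), and 2566 of all tests (32.2%); the weights of that fit stopped before convergence. The sign of phm was negative in all 19 alternatives it entered. That of spok turned positive with quantile normalization (0.15), median centring (0.15), median difference centring (0.048), array weights (0.22) and without control 3 and gain 2 (0.55), and ran from -0.50 to 0.27 with 1 array left out. Shd ran from -0.094 to 0.17, Cyp18a1 from -0.47 to -0.13 and phm from -0.64 to -0.15 with 1 array left out, and Cyp18a1 was at 0.00045 with median centring. Called genes over all tests, 36 higher and 277 lower, numbered 102 with no filter, 760 without control 3 and gain 2, 53 with control 1 and control 2 averaged, and 39 to 425 with 1 array left out (39 without control 1, 59 without control 2 and 135 without gain 1). They were 129 higher and 349 lower (478 in all) with median difference centring, 204 and 252 with median centring, and 171 and 282 with quantile normalization. The causes were not tested. Deviations of samples with the same replicate number had correlations of 0.20, 0.017 and 0.36. Samples of different numbers are not compared here, so these values do not decide whether the numbers are pairs. The main test did not pair them. The replicate block called 258 genes and no enzyme gene. With it the 95% interval of phm ran from -0.92 to -0.0092 (limma, unadjusted p = 0.0469, adjusted p = 0.216), below 0 throughout. That of spok narrowed to -0.56 to 0.37 (adjusted p = 0.787), while those of shd and Cyp18a1 were wider than in the main test. Signals under the floor limit what can be said of nvd, sro, dib and sad.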

Other observations

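Genes next to the enzyme genes in the genome were not called either. Of 14 neighbours that are not enzyme genes themselves, 8 were tested and none passed, a count near the background of 3.93% of all tests. Those of sad, CG6959 and CG6962, had differences of -0.49 and -0.48 (adjusted p = 0.207 and 0.208). Those of nvd, Snap25 and mRpS5, had -0.53 and 0.12. Those of dib, Ugt305A1 and wit, had 0.026 and -0.21. CG9628 beside shd had -0.48, and Rnb beside sro had 0.13. Snap25, which encodes a synaptic vesicle fusion protein, had log2 values of 5.94, 5.07 and 5.56 in gain larvae, against 6.10, 6.05 and 6.03 in control larvae, without overlap (adjusted p = 0.231). Such a separation, with the gain arrays lower, was seen in 25.1% of all tested probe sets.

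Malpighian tubules are among the tissues that form the active hormone. Of 5 tubule genes listed 3 were tested and none passed, beside 3.93% of all tests. The difference was -0.67 for the potassium channel gene Irk3 (adjusted p = 0.167) and -0.32 for Best2 (adjusted p = 0.448). All 3 were lowest on gain 2, as were 65.8% of all tested probe sets.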
